A study of Mus musculus with 12 samples.

Results

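The mitochondrial genome of the mouse gives rise to 37 annotated genes, and all 37 rows that the count table places on the mitochondrial chromosome (chrM) were taken, of 54752 rows in all. They are 13 genes for messenger RNAs (mRNAs), 2 for ribosomal RNAs (rRNAs) and 22 for transfer RNAs (tRNAs). The deposited annotation puts 28 on the plus strand and 9 on the minus strand, the latter being mt-Nd6 and 8 tRNAs. The cerebellar cortex, without the cerebellar nuclei, was dissected from 12 male wild-type (WT) mice, all F1 hybrids of C57BL6J and FVB and 12 weeks old. Of these, 4 mice were fed ad libitum (AL), 4 were under dietary restriction (DR) and 4 received a ketogenic diet (KD). DR mice were killed early in the dark period without having received their last meal, and the composition of the KD and the strain of the mother are not given in the sources used here. Poly(A) RNA was captured, and the library kit does not keep the strand of origin.

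Mitochondrial DNA is transcribed as long RNAs that cover nearly a whole strand, from which the tRNAs are cut out, so that the mRNAs and rRNAs lying between them are released. The 13 mRNAs encode core subunits of respiratory complexes I, III, IV and V, which sit in the inner membrane beside many more subunits made from nuclear genes. Most of the mRNAs carry short poly(A) tails. Neurons of the cerebellum, among them the continuously firing Purkinje cells, depend heavily on this machinery.

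The sequences of 4 tRNAs are shown first because these hold most of the tRNA reads or because libraries differed in them, with the anticodon in capitals. They were read from the GENCODE transcripts of GRCm38 and are written 5′ to 3′. The tRNA for glycine, mt-Tg, lies at chrM:9391-9458 on the plus strand, and the tRNAs for cysteine (mt-Tc, chrM:5192-5257), asparagine (mt-Tn, chrM:5089-5159) and proline (mt-Tp, chrM:15356-15422) lie on the minus strand.
mt-Tg: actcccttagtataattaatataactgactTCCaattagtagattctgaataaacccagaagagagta
mt-Tc: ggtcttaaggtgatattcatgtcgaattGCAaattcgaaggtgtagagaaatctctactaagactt
mt-Tn: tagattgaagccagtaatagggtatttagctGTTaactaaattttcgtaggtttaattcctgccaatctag
mt-Tp: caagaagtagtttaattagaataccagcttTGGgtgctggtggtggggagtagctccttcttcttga

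The first 60 bases of mt-Nd3, which starts at the base after mt-Tg, are shown beside those of its nuclear copy Gm28438, because the reads on this pair set some libraries apart. The pair differed at 1 base over 345 aligned bases, given in capitals. The substitution is T9461C, with the mitochondrial base first, its position on chrM of GRCm38 next and the base of the copy last. The stretch of mt-Nd3 is chrM:9459-9518 on the plus strand, and that of Gm28438 is chr1:24613060-24613119 on the minus strand.
mt-Nd3: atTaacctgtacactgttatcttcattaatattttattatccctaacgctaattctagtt
Gm28438: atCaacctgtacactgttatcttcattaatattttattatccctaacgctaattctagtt

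The gene mt-Atp8 (chrM:7766-7969, plus strand) is shown whole, with the 43 bases that it shares with the start of mt-Atp6 in capitals.
mt-Atp8: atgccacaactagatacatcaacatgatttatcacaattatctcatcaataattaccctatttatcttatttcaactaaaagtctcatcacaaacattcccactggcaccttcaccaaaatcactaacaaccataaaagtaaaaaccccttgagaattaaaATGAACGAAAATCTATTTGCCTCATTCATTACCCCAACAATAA

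Libraries held between 31712084 and 40798644 counts, and all 18 pairs of mice on the same diet differed beyond counting error (chi-square over degrees of freedom 4.95 to 11.55 across genes). Markers of the cerebellar cortex were present in all libraries: the 7 Purkinje cell markers summed to 6577 to 7077 CPM (counts scaled to library size) on AL, 5567 to 6412 on DR and 6502 to 6705 on KD, and the 6 granule cell markers to between 5049 and 5556 CPM in all. The sum of the Purkinje cell markers was thus lower in all 4 DR mice than in any AL or KD mouse, although only 3 of the 7 genes were without overlap between DR and AL and 1 was called, lower on DR. The part of cell composition in the values below was not tested. In such bulk tissue, fewer cells of a type and less RNA per cell cannot be told apart. The 7 markers of Bergmann glia and astrocytes summed to 3464 to 3835 CPM on AL, 3297 to 3553 on DR and 3501 to 3709 on KD, and 3 of them were called lower in DR against AL. Of 6 oligodendrocyte markers and 4 markers of oligodendrocyte precursors, 1 each was called lower on DR against AL. The precursor markers summed to 63.9 to 73.1 CPM on AL, 54.1 to 63.0 on DR and 61.5 to 72.5 on KD. Of 7 interneuron markers 1 was called higher on DR against AL. No marker of granule cells, microglia, endothelium, choroid plexus and meninges or erythroid cells was called in DR against AL. Over all genes 3.06% were called and 10.9% were without overlap in DR against AL. In KD against DR, 1 Purkinje cell, 2 Bergmann glia and astrocyte, 2 oligodendrocyte and 1 precursor marker were called higher on KD. Of the choroid plexus and meninges markers 1 was called higher on KD, and of the interneuron markers 1 was called lower. Granule cell markers had 1 called in each direction. Over all genes 4.94% were called in that comparison. The 6 markers of choroid plexus and meninges summed to 18.6 to 33.9 CPM over the 12 libraries.

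Mitochondrial genes took a similar share of the counts on each diet. The share of all 37 genes was 3.87%, 4.07%, 3.60% and 4.11% in AL replicates 1 to 4. In DR replicates 1 to 4 it was 4.22%, 3.67%, 3.69% and 3.66%. In KD replicates 1 to 4 it was 4.005%, 3.73%, 3.97% and 4.06%. DR replicate 1 had the highest share of the 12 libraries, while the other 3 DR mice lay close together at the low end, and all 3 diets overlapped. The mean was 3.91% ± 0.232 (SD, n = 4) on AL, 3.81% ± 0.275 on DR and 3.94% ± 0.145 on KD, so the means lay closer together than the spread between mice. No test was made of this sum.

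**Figure D1:**
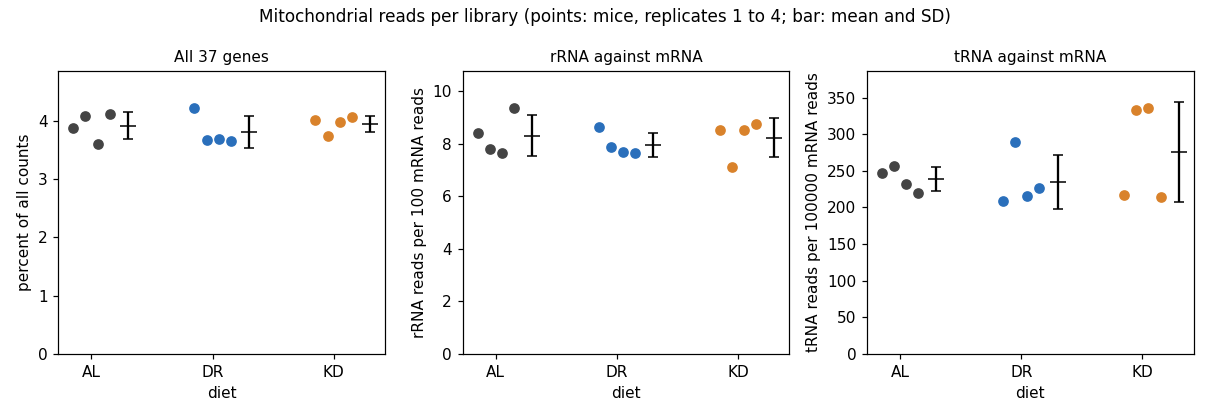
Mitochondrial reads in the 12 libraries by diet: the percent of all counts on the 37 genes (left), rRNA reads per 100 mRNA reads (middle) and tRNA reads per 100000 mRNA reads (right), with points for the 4 mice of each diet in replicate order and bars for mean and SD. The share ran from 3.60% to 4.22% with overlap of all diets, and KD replicates 2 and 3 had the most tRNA reads.

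Reads on the 13 mRNAs made up nearly all of this share. Complex IV, which passes electrons to oxygen, held 49.0% to 50.5% of the mRNA reads with its 3 genes. Complex I, the entry point for electrons from NADH, held 30.7% to 32.4% with 7 genes. Cytochrome b of complex III held 10.3% to 10.7%, and the 2 genes of complex V, the ATP synthase, held 7.34% to 8.53%. The order of the complexes was therefore the same in all 12 libraries.

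To compare genes with each other, CPM were divided by the length of the gene in kilobases (kb). The subunits of complex IV led: mt-Co1 had a median of 6818 CPM per kb over the 12 libraries (range 6255 to 7367), mt-Co2 5244 and mt-Co3 4891. The order went on with mt-Atp6 at 4025, mt-Nd4l at 3576, mt-Cytb at 3307, mt-Nd1 at 2473, mt-Nd4 at 2145 and mt-Nd2 at 2025. A second tier held mt-Rnr1 at 1253, mt-Nd3 at 1226, mt-Nd5 at 1190 and mt-Rnr2 at 1133 CPM per kb. Within that tier the neighbours could not be ordered: mt-Rnr1 exceeded mt-Nd3 in 8 of 12 libraries, mt-Nd3 exceeded mt-Nd5 in 6, and mt-Nd5 exceeded mt-Rnr2 in 8. The 2 lowest mRNA genes by this measure were mt-Nd6, at 598 CPM per kb, and mt-Atp8, at 513 CPM per kb, and their ranges overlapped. The value of mt-Atp8 may not be its RNA level. It shares 43 bases with mt-Atp6, and how reads that span both genes were counted is not given.

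Among the leading genes, mt-Co1 lay above mt-Co2 and mt-Cytb above mt-Nd1 in all 12 libraries without overlap of their ranges. The ranges of mt-Co2 and mt-Co3 overlapped, with mt-Co2 higher in 11 libraries, and the same held for mt-Atp6 over mt-Nd4l, mt-Nd4l over mt-Cytb and mt-Nd4 over mt-Nd2. The gene mt-Nd6 is the only mRNA annotated on the minus strand, and the kit does not keep strand, so reads from RNA of the opposite strand cannot be told apart from its own. The level of mt-Co1 per kb was 11.4 times that of mt-Nd6 and 13.3 times that of mt-Atp8, as ratios of medians. The ratio to mt-Atp8 also depends on how reads that span it and mt-Atp6 were counted. The 2 rRNAs, which form the scaffold of the mitochondrial ribosome, were captured with poly(A) RNA, and how completely was not tested.

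**Figure D2:**
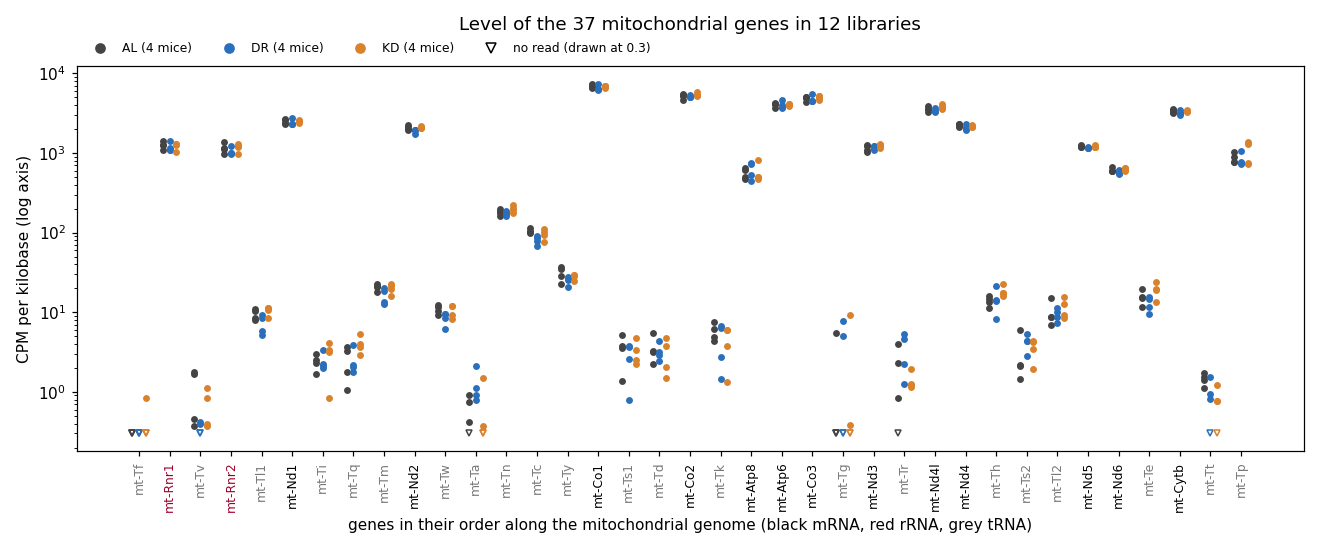
Level of each of the 37 genes in each library, in CPM per kb on a log axis, with the genes in their order along the mitochondrial genome and open triangles for libraries without a read. The mRNAs and rRNAs lie between 446 and 7367 CPM per kb, most tRNAs lie at or below 37.4, and mt-Tp, mt-Tn and mt-Tc stand above the other tRNAs.

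The tRNA genes are short, lack the poly(A) tails on which the capture rests, and together took 209 to 336 reads per 100000 mRNA reads. Over the 12 libraries, 39080 reads were counted on them, of which 26635 (68.2%) fell on mt-Tp alone. The next were mt-Tn, with 5715 reads, and mt-Tc, with 2706. All 3 border at least 30 bases without an annotated gene: mt-Tp is the last gene before the noncoding control region, and mt-Tn and mt-Tc lie on either side of a gap of 32 bases. The fourth tRNA of this kind, mt-Tf at the far end of the control region, held 2 reads. These 4 together had 89.7% of the tRNA reads. The other 18 tRNAs have neighbours within 5 bases, or overlap them, and held between 20 and 819 reads each over the 12 libraries. How a read that spans neighbouring genes was counted is not given in the sources used here, and its part in this difference was not tested.

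Only 26 of the 37 genes passed the filter on low counts in the comparisons of diets: all 13 mRNAs, both rRNAs and 11 tRNAs. The 11 tRNAs left out had between 0 and 22 reads in any library. The lowest was mt-Tf, the tRNA for phenylalanine, with 2 reads in KD replicate 2 and 0 in the other 11 libraries, followed by mt-Tv with 20 reads, mt-Ta with 22 and mt-Tt with 29 over all 12 libraries.

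Diet was first compared for DR against AL. No mitochondrial gene passed an adjusted p of 0.05: edgeR's quasi-likelihood test called 0 of the 26, while it called 583 of 19052 genes tested (3.06%) in all. At an unadjusted p under 0.05 there were 2 mitochondrial genes, mt-Nd2 and mt-Tc, against 3429 of all genes (18.0%), and DESeq2 called 1, mt-Tc, against 1012 of all genes (5.31%). The 4 DR and the 4 AL mice did not overlap for 1 of the 26 genes, mt-Tc, against 10.9% of all genes. The 13 mRNAs had log2 fold changes from -0.14 to 0.12 with a median of -0.06, against 0.00 over all genes, and 11 of the 13 lay below 0. The median standard error (SE) of a single mRNA was 0.057, close to the size of that median. Scaled to mitochondrial mRNA reads instead of all reads, the median was -0.0017, as that scaling centres these genes.

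KD was then compared with AL. The test called 0 of the 26 members and 0 of 19036 genes (0%), although 928 genes (4.87%) had an unadjusted p under 0.05, none of them mitochondrial. DESeq2 called 10 genes in all (0.0525%) and 0 of the members. No member was without overlap between KD and AL mice, against 2.96% of all genes. The 13 mRNAs had log2 fold changes from -0.04 to 0.11, with a median of 0.03.

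In KD against DR, 0 of the 26 members were called, against 942 of 19087 genes (4.94%). At an unadjusted p under 0.05 there were 5 members, mt-Nd2, mt-Nd4l, mt-Nd6, mt-Tn and mt-Te, against 3565 of all genes (18.7%), and DESeq2 called 2, mt-Nd2 and mt-Nd4l, against 1338 of all genes (7.01%). The diets did not overlap for 1 member, mt-Nd2, against 11.8% of all genes. The median of the 13 mRNAs was 0.07 (range -0.10 to 0.17), with 11 of 13 above 0. This comparison shares the DR mice with the first and the KD mice with the second.

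**Figure D3:**
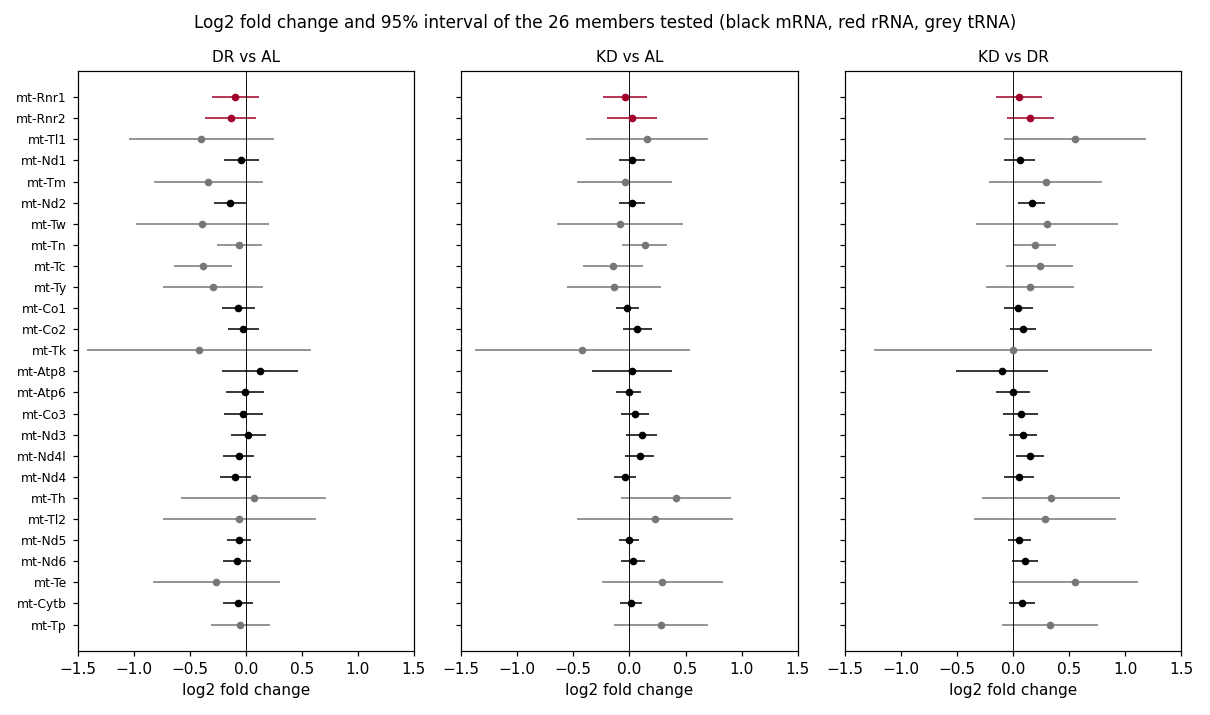
Log2 fold change of the 26 members tested in the 3 comparisons, with 95% intervals from the standard error with 6 degrees of freedom; black marks mRNAs, red rRNAs and grey tRNAs. The mRNAs lie between -0.14 and 0.17, with narrow intervals except for mt-Atp8, and the tRNAs with few reads have wide ones. The intervals are wider than edgeR's test implies, so some include 0 where the unadjusted p is under 0.05.

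Of the genes for complex I, mt-Nd2 (chrM:3914-4951) came closest to the threshold. It was at 2094, 2179, 1994 and 2350 CPM in AL replicates 1 to 4. On DR it was at 2030, 1795, 1986 and 2002 CPM, and on KD at 2146, 2110, 2220 and 2289 CPM. All 4 KD mice thus lay above all 4 DR mice, and AL mice overlapped both. For KD against DR the log2 fold change was 0.17 (SE 0.049, adjusted p = 0.0615 by edgeR), and for DR against AL it was -0.14 (SE 0.057, adjusted p = 0.209). Without DR replicate 1 the KD against DR difference of mt-Nd2 passed, with an adjusted p of 0.0381, and over all alternatives its adjusted p ran from 0.00804 to 0.495. Without the 4 libraries that stand apart, described below, it was 0.202.

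The small subunit gene mt-Nd4l was at 1043, 1069, 968 and 1146 CPM on AL, 1008, 987, 965 and 1087 CPM on DR and 1137, 1055, 1083 and 1217 CPM on KD. Only DR replicate 4 reached into the range of the KD mice. Its log2 fold change for KD against DR was 0.15 (SE 0.052, adjusted p = 0.118 by edgeR). The remaining genes of complex I, mt-Nd1, mt-Nd3, mt-Nd4, mt-Nd5 and mt-Nd6, had adjusted p of at least 0.249 in every comparison.

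The mean of mt-Nd1 was 2371 ± 164 CPM on AL, 2309 ± 202 on DR and 2406 ± 71.9 on KD (SD, n = 4 each). For mt-Nd4 it was 3069 ± 138, 2874 ± 216 and 2983 ± 105 CPM, and for mt-Nd5, a proton-pumping subunit, 2220 ± 73.0, 2124 ± 26.1 and 2208 ± 67.8 CPM. The 95% intervals of the fold changes of mt-Nd1, mt-Nd4 and mt-Nd5 included 0 in all 3 comparisons, as did those of mt-Nd3 and mt-Nd6. These intervals use 6 degrees of freedom and are wider than edgeR's test implies. By that test mt-Nd6 had an unadjusted p of 0.0434 in KD against DR. For mt-Nd3 the means were 402 ± 37.1, 408 ± 24.4 and 434 ± 19.4 CPM, and for mt-Nd6 they were 317 ± 16.4, 300 ± 17.2 and 323 ± 13.5 CPM.

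Complex III is represented by mt-Cytb (chrM:14145-15288). It was at 3690, 3999, 3581 and 4021 CPM on AL, 3907, 3447, 3591 and 3619 CPM on DR and 3810, 3757, 3865 and 3992 CPM on KD. The diets overlapped, and the log2 fold change for DR against AL was -0.07 (SE 0.055, adjusted p = 0.547 by edgeR).

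Complex IV showed no called difference either. The gene mt-Co1 (chrM:5328-6872), which encodes the catalytic subunit, was at 10451, 11381, 9986 and 10888 CPM on AL, 11327, 9842, 9945 and 9663 CPM on DR and 10616, 10079, 10713 and 10738 CPM on KD. DR replicate 1 lay among the highest of all libraries and the other 3 DR mice were the lowest of all. The log2 fold change for DR against AL was -0.07 with a 95% interval of -0.22 to 0.08, so that a fall larger than 0.22 on the log2 scale is outside the interval. For mt-Co2 the means were 3538 ± 266, 3485 ± 83.2 and 3710 ± 209 CPM, and for mt-Co3 they were 3783 ± 274, 3725 ± 387 and 3904 ± 211 CPM on AL, DR and KD (SD, n = 4 each). The smallest adjusted p of these 3 genes was 0.33, for mt-Co2 in KD against DR.

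In complex V, mt-Atp6, the proton channel subunit, was at 2745 ± 192, 2733 ± 281 and 2731 ± 80.3 CPM on AL, DR and KD (SD, n = 4 each), and its log2 fold changes lay between -0.01 and 0.00 in the 3 comparisons. The gene mt-Atp8, which shares its last bases with mt-Atp6, varied most among mice of the same diet of all 13 mRNAs, with a coefficient of variation of 14.8% on AL, 24.3% on DR and 29.0% on KD, where the medians over the 13 mRNAs were 6.98%, 5.96% and 3.63%. It was at 131, 97.0, 103 and 126 CPM on AL, 91.0, 153, 107 and 146 CPM on DR and 101, 166, 96.5 and 101 CPM on KD. High and low mice occurred on every diet, and the log2 fold change was 0.12 (SE 0.14) for DR against AL.

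The rRNAs did not pass the test in any comparison. The small subunit rRNA mt-Rnr1 was at 1193, 1200, 1036 and 1365 CPM on AL, 1333, 1093, 1041 and 1031 CPM on DR and 1232, 971, 1217 and 1249 CPM on KD. The large subunit rRNA mt-Rnr2 was at 1817, 1767, 1528 and 2165 CPM on AL, 1953, 1554, 1558 and 1560 CPM on DR and 1903, 1523, 1923 and 2025 CPM on KD. In both, DR replicate 1 lay apart from the other DR mice, and KD replicate 2 was the lowest on KD. The diets overlapped, and the smallest adjusted p was 0.347, for mt-Rnr2 in KD against DR. Without a filter on low counts that difference was called (adjusted p = 0.0249 by edgeR).

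Of the tRNAs, mt-Tc had the lowest p for DR against AL, while mt-Tk, mt-Tl1 and mt-Tw, with fewer reads and larger errors, had slightly larger log2 fold changes (-0.42, -0.40 and -0.39). It was at 6.78, 6.53, 7.002 and 7.57 CPM in AL replicates 1 to 4 and at 5.98, 5.12, 4.52 and 5.69 CPM in DR replicates 1 to 4. On KD it was at 6.18, 6.62, 7.33 and 5.02 CPM. Every DR mouse lay below every AL mouse, and the KD mice spread over both. The log2 fold change for DR against AL was -0.38 (SE 0.11, 95% interval -0.64 to -0.12) with an unadjusted p of 0.00252 and an adjusted p of 0.0652 in edgeR's test. The adjusted p ran from 0.0228 (DESeq2) to 0.308 (without the 4 libraries that stand apart) over the alternatives, with log2 fold changes of mt-Tc from -0.44 to -0.31. It rests on 157 to 275 reads per library.

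The neighbour across the gap, mt-Tn, was at 14.1, 12.3, 11.4 and 13.3 CPM on AL, 12.5, 13.2, 12.1 and 11.4 CPM on DR and 14.3, 12.6, 13.6 and 15.6 CPM on KD. AL and DR overlapped widely, with a log2 fold change of -0.06 (SE 0.082), and KD was above DR by 0.19 (SE 0.078, adjusted p = 0.19 by edgeR). The tRNA for glutamate, mt-Te, was at 0.888 ± 0.193 CPM on DR and 1.32 ± 0.304 on KD (SD, n = 4 each), which is 0.55 on the log2 scale (SE 0.23, adjusted p = 0.198).

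The tRNA gene with the most reads, mt-Tp, was at 58.8, 68.3, 51.2 and 51.9 CPM on AL, 52.2, 70.7, 49.3 and 50.7 CPM on DR and 49.0, 87.7, 92.8 and 50.7 CPM on KD. As for mt-Nd6, reads from RNA of the opposite strand cannot be told apart from its own. AL replicate 2, DR replicate 2 and KD replicates 2 and 3 were high, so high mice occurred on each diet. KD exceeded AL by 0.28 on the log2 scale (SE 0.17, adjusted p = 0.994 by edgeR) and DR by 0.33 (SE 0.17, adjusted p = 0.33). Without a filter on low counts both differences were called (adjusted p = 0.000546 and 1.34e-07 by edgeR), although the mice of each diet were as unlike. The other tRNAs tested, mt-Tl1, mt-Tm, mt-Tw, mt-Ty, mt-Tk, mt-Th and mt-Tl2, had adjusted p of at least 0.268.

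**Figure D4:**
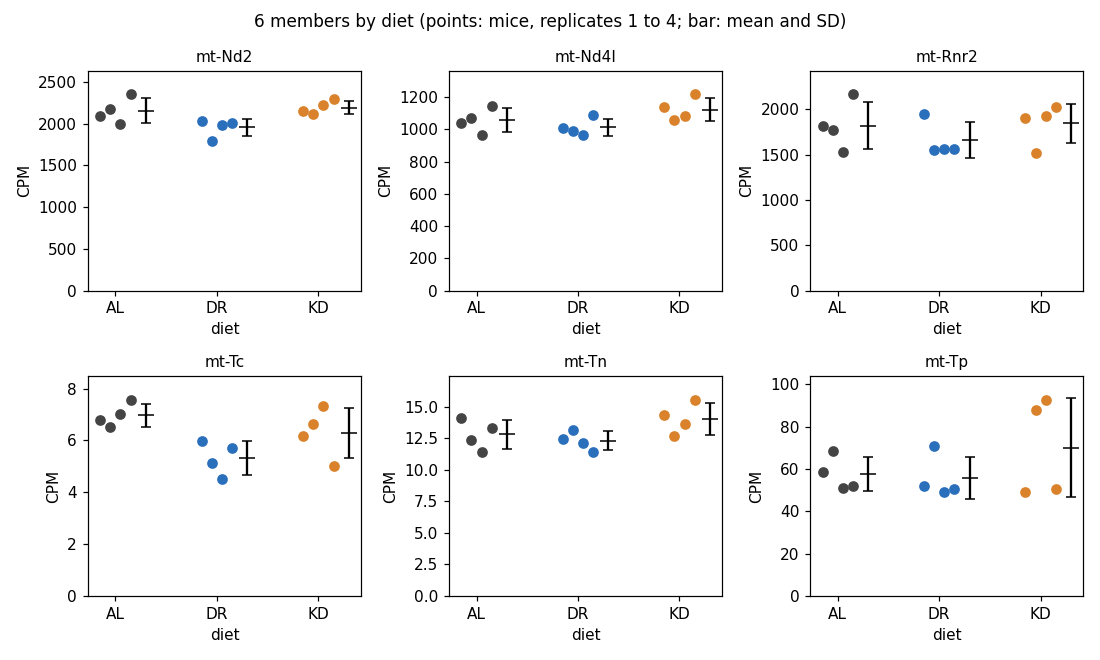
CPM of mt-Nd2, mt-Nd4l, mt-Rnr2, mt-Tc, mt-Tn and mt-Tp by diet, with a point for each of 4 mice in replicate order and a bar for mean and SD. For mt-Tc all DR mice (4.52 to 5.98 CPM) lie below all AL mice (6.53 to 7.57 CPM), for mt-Nd2 all KD mice lie above all DR mice, and mt-Tp has high mice on every diet.

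DR replicate 1 carried much of the spread on DR. It was the highest of the 4 DR mice for 10 of the 13 mRNAs and the lowest for 1. Leaving it out raised the number of members with an unadjusted p under 0.05 from 2 to 7 in DR against AL, and from 5 to 15 in KD against DR, of 27 and 28 members that then passed the filter. None was called in DR against AL without it, where 353 of 19183 genes were called in all. In KD against DR only mt-Nd2 was called, where 774 of 19349 genes were called in all. The share of all genes at the unadjusted p was not computed for these fits. This mouse was singled out by these same genes, so leaving it out can narrow the DR spread by itself.

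A set of 4 libraries, AL replicate 1, DR replicates 2 and 4 and KD replicate 2, stood apart in reads around mt-Tg and mt-Nd3. On mt-Tg they had 15, 11, 19 and 22 reads, while KD replicate 4 had 1 read and the other 7 libraries had 0. Reads on Gm28438 divided by those on mt-Nd3 were 0.962, 0.966, 0.966 and 0.972 in these 4 libraries and 1.06 to 1.08 in the other 8, where the pair differs by the 1 base shown above, the third of mt-Nd3. No library fell between the sets by either measure. A count table does not hold the bases of the reads, so whether these libraries differ in mitochondrial sequence, which could change where reads are counted, was not tested, and their counts on mt-Tg, mt-Nd3 and mt-Atp8 cannot be read as levels of RNA alone.

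**Figure D5:**
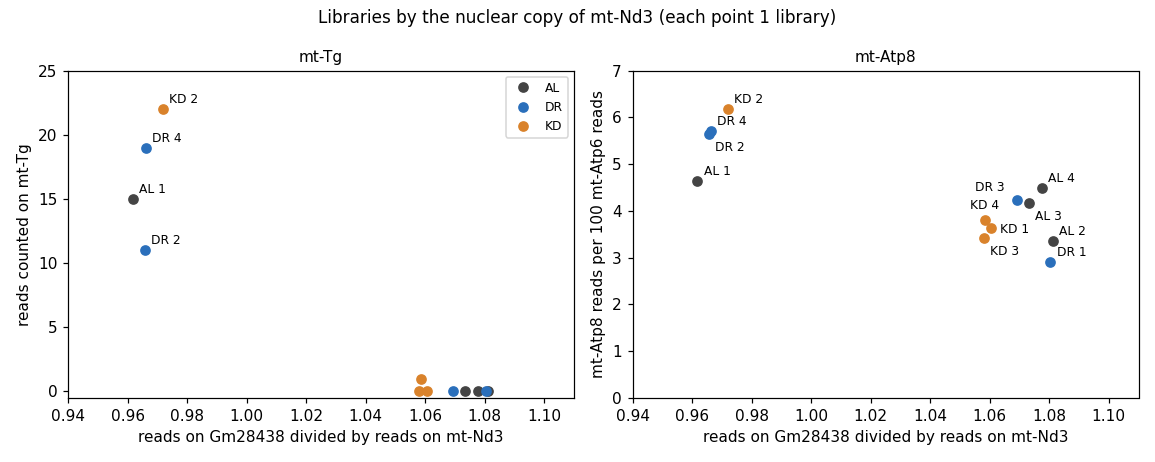
Each library by the ratio of reads on Gm28438 to those on mt-Nd3 (horizontal) and by its reads on mt-Tg (left) or its mt-Atp8 reads per 100 mt-Atp6 reads (right), coloured by diet. AL 1, DR 2, DR 4 and KD 2 lie at ratios of 0.962 to 0.972 with 11 to 22 mt-Tg reads, and the other 8 libraries at 1.06 to 1.08 with 0 or 1.

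The same 4 libraries had the highest counts on mt-Atp8, at 131, 153, 146 and 166 CPM, against 91.0 to 126 CPM in the other 8. Per 100 reads of mt-Atp6 they had 4.64, 5.64, 5.71 and 6.19 reads of mt-Atp8, against 2.90 to 4.50 in the others. The tRNA for arginine, mt-Tr, which follows mt-Nd3, had 11, 10, 13 and 3 reads in them, against 0 to 6 in the others, so that KD replicate 2 lay within the range of the rest. The levels of mt-Nd3 and of mt-Tp, and the share of all mitochondrial reads, overlapped between the 4 libraries and the other 8. These libraries include 1 AL, 2 DR and 1 KD mouse, and they were picked out by the reads themselves, so no test was made between them and the rest.

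Without these 4 libraries the log2 fold change of mt-Atp8 was -0.13 for DR against AL and -0.13 for KD against AL, where it was 0.12 and 0.03 with all mice, and its adjusted p stayed at 0.678 and 0.932 in edgeR's test. No member was called without them or with a term for them in the fit. The log2 fold change of mt-Tc for DR against AL was -0.41 without them.

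The 7 annotated nuclear copies on chromosome 1 (24611535 to 24616197) took 1.47% to 1.74% of all counts. They match mt-Nd4, mt-Nd4l, mt-Nd3, mt-Co3, mt-Atp6, mt-Co2 and mt-Co1, and 5 of the 7 were identical to the mitochondrial gene over the aligned bases. Gm28438 differed at 1 base and Gm29216, the copy of mt-Co1, at 6, with 98.78% identity over 492 bases. For 5 of the 7 the copy lacks at most 3 bases of the gene. Reads on the copy divided by those on the member lay between 1.0016 and 1.0045 for mt-Co2, between 1.0013 and 1.0032 for mt-Co3 and between 0.9975 and 1.0023 for mt-Nd4l. For the other two of these 5 it lay between 0.962 and 1.08 for mt-Nd3 and between 1.34 and 1.46 for mt-Atp6. For mt-Nd4 and mt-Co1, of which the copies hold only a stretch, the ratio was 0.549 to 0.597 and 0.159 to 0.186. Whether the same reads were counted on both a gene and its copy is not given and was not tested. Counts on the copies therefore cannot be read as their own transcription, and such reads would enter the library totals more than once.

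Of the 50-base windows of a member, 99.5% occurred in a copy for mt-Co2 and mt-Atp6, 99.9% for mt-Co3, 98.0% for mt-Nd3, 98.8% for mt-Nd4l, 62.2% for mt-Nd4 and 28.7% for mt-Co1. None occurred there for mt-Nd1, mt-Nd2, mt-Nd5, mt-Nd6, mt-Cytb, mt-Atp8, the rRNAs or the tRNAs. Only annotated transcripts were searched, so nuclear sequence between or outside the annotated copies could not be seen, for these genes too. The 43 bases that mt-Atp8 shares with mt-Atp6 lie within the stretch that Gm10925 copies (chrM:7927-8604), but they are shorter than a window. Some windows also occurred in other nuclear transcripts: 81 of 989 for mt-Nd2 (Gm13339), 135 of 1775 for mt-Nd5, 16 of 1533 for mt-Rnr2 and 335 more of 1496 for mt-Co1. The levels of the first 7 genes, and in part those of mt-Nd2, mt-Nd5 and mt-Rnr2, are therefore uncertain, as reads from the 2 genomes cannot be told apart by sequence over these stretches. With the copies left out of the library totals, the mean share of mitochondrial reads was 3.98% on AL, 3.87% on DR and 4.01% on KD.

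Of 61 tested nuclear genes for mitochondrial transcription, RNA processing and biogenesis, 2 rose and 1 fell on DR against AL (4.92%, against 3.06% of all genes). DR and AL did not overlap for 10 of the 61 (16.4%, against 10.9% of all genes). Ssbp1, which binds single-stranded mitochondrial DNA, rose by 0.31 on the log2 scale (SE 0.067, adjusted p = 0.0243 by edgeR), and Angel2 rose by 0.21 (SE 0.043, adjusted p = 0.0175). Ppargc1b, a coactivator of genes for mitochondrial biogenesis, fell by 0.39 (SE 0.089, adjusted p = 0.0295). On KD against AL none of the 61 was called by edgeR's test and 3 had an unadjusted p under 0.05 (4.92%, against 4.87% of all genes). On KD against DR, 2 of the 61 were called (3.28%, against 4.94% of all genes). Ppargc1b was higher by 0.43 (adjusted p = 0.00992 by edgeR) and Angel2 was lower by 0.16 (adjusted p = 0.038). The medians of the 61 genes were 0.04, 0.01 and -0.03 in the 3 comparisons.

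The best known factors of this group did not pass the test. For DR against AL, log2 fold changes were -0.03 (SE 0.058) for Polrmt, the mitochondrial RNA polymerase, and -0.03 (SE 0.061) for Tfam, which packages mitochondrial DNA and starts transcription. Lrpprc and Slirp, partners that stabilise mitochondrial mRNAs, were at -0.11 (SE 0.042, adjusted p = 0.162) and 0.10 (SE 0.15). Elac2, which cuts the 3′ ends of tRNAs, was at -0.12 (SE 0.057, adjusted p = 0.296), and the coactivator Ppargc1a at 0.04 (SE 0.054). For KD against AL these 6 genes lay between -0.15 (Elac2, adjusted p = 0.981) and 0.14 (Slirp).

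The nuclear partners of the 13 proteins were tested as 81 genes for subunits of complexes I to V. None was called in DR against AL or in KD against AL by edgeR's test, with 5 (6.17%) and 13 (16%) genes at an unadjusted p under 0.05, against 18.0% and 4.87% of all genes. In KD against DR 1 of the 81 was called (1.23%, against 4.94% of all genes). This was Cox6c of complex IV, higher on KD by 0.15 (SE 0.041, adjusted p = 0.0411 by edgeR). The medians of the 81 log2 fold changes were 0.06, 0.08 and 0.02, where those of the 13 mitochondrial mRNAs were -0.06, 0.03 and 0.07.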

How the data were processed

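Poly(A) RNA from 12 mice, 4 on each diet, was sequenced. Per the labels and the methods of the study, the authors trimmed reads with Trimmomatic 0.39, aligned them with STAR 2.7.0f to GRCm38.p6 and counted them per gene with featureCounts (Subread 1.6.4), and the deposited values are these counts without normalization. Settings for strand, overlapping genes and reads with several matches are not given in the sources used here. Replicates were numbered in the order of the samples. Nothing says that RNA was extracted in batches.

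Low counts were removed with filterByExpr (its min.count at 10 and min.total.count at 15), TMM scaling was applied, and each pair of diets was tested on its 8 libraries by glmQLFTest, the quasi-likelihood test in edgeR 4.0.16 (R 4.3.3), without a covariate, with Benjamini-Hochberg adjustment over all genes tested and a threshold of 0.05. CPM use 1 TMM scaling over the 12 libraries. DESeq2 1.42.0, other scalings and filters, and fits without a mouse were alternatives. The procedure was tested on simulated counts with changes larger than any of the members showed. It therefore does not show whether changes as small as those of the members would be found. Symbols, and the sequences compared in windows of 50 bases, came from a later GENCODE release, and coordinates from the deposited table. The members and gene lists were chosen with earlier results of these data known. All members are accounted for: mRNAs, rRNAs and tRNAs that passed the filter are named, with called genes of the lists and 6 fixed ones.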

Additional observations from a re-analysis of the deposited data

Results flagged for a closer look

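In 87 groups of 4 mice, Dixon's test found 11 in which the highest or lowest mouse lay far from the other 3, where chance gives about 1 in 20. The groups are not independent, as each mouse enters many of them and the share sums over the genes. The number found can therefore not be set directly against that rate. DR replicate 1 stood high for the share of mitochondrial counts, at 4.22% against 3.66% to 3.69% in the other DR mice. It also stood high for mt-Co1 (11327 CPM against 9663 to 9945), mt-Co3 (4303 against 3480 to 3559), mt-Nd1 (2612 against 2197 to 2227) and mt-Rnr2 (1953 against 1554 to 1560). KD replicate 2 stood low for mt-Rnr1 (971 CPM against 1217 to 1249), mt-Nd1 (2299 against 2433 to 2455) and rRNA reads per 100 mRNA reads (7.11 against 8.52 to 8.76), and high for mt-Atp8 (166 CPM against 96.5 to 101). DR replicate 2 stood high for mt-Tp (70.7 CPM against 49.3 to 52.2), and AL replicate 4 for mt-Nd6 (341 CPM against 305 to 311).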

How the results depend on the processing

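No member was called under 15 of 17 alternatives for DR against AL, 16 of 17 for KD against AL and 14 of 17 for KD against DR. DESeq2 called 1 member for DR against AL and 2 for KD against DR. Without a filter on low counts 1 member was called for DR against AL (mt-Tc) and 1 for KD against AL (mt-Tp). For KD against DR 4 of 37 were called (mt-Rnr2, mt-Nd2, mt-Nd4l and mt-Tp). In these fits 3.57%, 0.335% and 4.24% of all genes were called. With 1 mouse left out, the number was 0 for DR against AL and for KD against AL, and 0 to 1 for KD against DR, where DR replicate 1 decided it. Over all genes, DR against AL gave 1012 calls by DESeq2, 228 scaled to mitochondrial mRNA reads, 1258 without a filter, 90 without the 4 libraries that stand apart (chosen after seeing the data) and 235 to 712 with 1 mouse left out. KD against AL gave 10, 2, 118, 2 and 0 to 6 calls in the same order. KD against DR gave 1503 without a filter, 560 without the 4 libraries and 467 to 946 with 1 mouse left out. Scaled to mitochondrial mRNA reads, the median log2 fold change of the 13 mRNAs was -0.0017 for DR against AL and 0.00355 for KD against DR, and the median over all genes moved to 0.06 and -0.07. The shares of counts moved by less than the spread between mice. Of 1291 values of single members under the alternatives, 10 passed the threshold and 84 changed sign without passing it. No paired analysis was possible because the labels give no replicate numbers shared between diets.

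Few reads limit the tRNAs most: 11 of 22 could not be tested, and their values cover counting error in addition to the spread between mice. Nothing says whether mice came from separate litters or cages. Poly(A) capture, reads shared with nuclear copies and the lost strand limit what the levels of single genes show.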
